A study of Homo sapiens with 4 samples.

Results

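Histone genes were followed through the RNA and the N6-methyladenosine (m6A) peaks of the human uveal melanoma line OMM2.3 after treatment with meclofenamic acid. The genes were taken by symbol, as those beginning with H1-, H2AC, H2BC, H3C, H4C, H2AZ, H3-3, H2AX, H2AJ, H4-16 or MACROH2A. The rule found 58 genes among the 14416 of the gene table, and every histone gene in the peak lists was among them. They were split by symbol into 48 replication-dependent genes (H1-1 to H1-6, H2AC, H2BC, H3C and H4C) and 10 variants. H4-16 falls with the variants by its symbol, although RefSeq lists the same gene as H4C16. Of the RefSeq protein-coding genes with these prefixes, 22 had no row in the table.

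Wild-type OMM2.3 cells received meclofenamic acid (MA) for 24 h or, as the control, DMSO (NC) for 24 h. This anti-inflammatory drug also inhibits FTO, an enzyme that removes m6A. RNA selected for poly(A) was fragmented, and each condition gave 1 input library and 1 library of fragments pulled down on m6A antibody beads (RIP), so there were 4 libraries. There was no replicate, so no p-value or SD could be given, and every difference describes these libraries only.

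Histones package DNA into nucleosomes, each with a core of H2A, H2B, H3 and H4 and often a linker histone H1. Replication-dependent genes lie in clusters, mostly lack introns, and are transcribed in S phase into mRNAs that end in a stem-loop bound by SLBP instead of a poly(A) tail. Variant histones are made throughout the cell cycle from mRNAs with a poly(A) tail, and poly(A) forms of some replication-dependent genes are also known.

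The input totals recovered from the deposited FPKM values (reads per kilobase of gene, scaled to library size) were 41630895 for MA and 37041597 for NC. All 8 melanocyte lineage markers were in the table, with a summed level of 3229 FPKM in MA and 7427 FPKM in NC. Of 17 markers of fibroblasts, immune, endothelial and epithelial cells, 11 were in the table and 2 reached 1 FPKM, LUM and CD68. LUM was at 12.03 FPKM in MA and 4.96 FPKM in NC, and CD68 at 89.9 FPKM in MA and 111 FPKM in NC. The part of these differences in the histone values was not tested. In bulk RNA, fewer cells of a type and less RNA per cell cannot be told apart.

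The promoters of 3 replication-dependent genes that the results below turn on show the sequence elements of this gene class. Each line gives 250 bases before and 50 after the RefSeq start (GRCh38.p14), read 5′ to 3′ on the gene's strand. Capitals mark the CCAAT box (CCAAT or ATTGG), the TATA box (TATAAA or TTTATA) and the octamer (ATTTGCAT or ATGCAAAT). NF-Y binds CCAAT boxes, TBP binds TATA boxes, and the octamer is the site of the POU factor OCT1 at H2B genes.
H2BC12 (chr6:27146809-27147108, minus strand): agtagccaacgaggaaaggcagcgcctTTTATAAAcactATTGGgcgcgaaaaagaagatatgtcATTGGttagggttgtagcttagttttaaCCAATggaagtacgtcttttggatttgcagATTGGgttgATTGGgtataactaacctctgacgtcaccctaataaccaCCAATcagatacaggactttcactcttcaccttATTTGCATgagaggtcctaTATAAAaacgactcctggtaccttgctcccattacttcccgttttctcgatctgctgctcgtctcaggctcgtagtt
H1-2 (chr6:26056421-26056720, minus strand): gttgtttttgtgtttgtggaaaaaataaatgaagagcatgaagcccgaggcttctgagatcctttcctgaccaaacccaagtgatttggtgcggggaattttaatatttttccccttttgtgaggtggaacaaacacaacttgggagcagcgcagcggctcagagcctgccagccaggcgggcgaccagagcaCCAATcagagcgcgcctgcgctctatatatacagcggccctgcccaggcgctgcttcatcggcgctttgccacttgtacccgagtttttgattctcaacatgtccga
H2AC6 (chr6:26123922-26124221, plus strand): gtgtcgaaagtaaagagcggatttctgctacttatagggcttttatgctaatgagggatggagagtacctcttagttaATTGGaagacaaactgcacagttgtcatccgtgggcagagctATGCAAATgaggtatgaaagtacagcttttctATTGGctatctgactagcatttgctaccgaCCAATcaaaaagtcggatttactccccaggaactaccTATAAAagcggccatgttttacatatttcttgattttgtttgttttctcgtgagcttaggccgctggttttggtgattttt
H2BC12 held 6 CCAAT matches, 3 TATA matches and 1 octamer, with TTTATA and TATAAA overlapping in its TTTATAAA. H1-2 held 1 CCAAT match and neither of the other motifs in these exact letters. H2AC6 held 3 CCAAT matches, 1 TATA match and 1 octamer.

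These elements were frequent across the class. RefSeq promoters were found for 54 of the 58 genes. A CCAAT match stood in 38 of 45 replication-dependent promoters (84.4%), against 35.7% of all 27305 promoters of the same length. A TATA match stood in 29 of 45 (64.4%), against 11.95% of all promoters. The octamer stood in 20 of 45 (44.4%), against 1.80% of all promoters. It stood in 11 of 14 H2B and 8 of 12 H2A promoters, with 1 of 7 among H3 (H3C4) and 0 of 8 among H4 promoters. These are not separate sites, since 15 of the 45 windows overlap another, mostly H2A and H2B genes that face each other, and the 20 promoters hold 14 distinct octamer positions. H3C4 and H2AC7 have the same window, and H4C14 and H4C15 the same sequence. H4 promoters also held few CCAAT matches, 1 of 8, whereas all 4 H1, 12 H2A, 14 H2B and 7 H3 promoters held 1 or more. Among the 9 variant promoters, 5 had a CCAAT match, 5 a TATA match and 1 an octamer. A match describes letters at any place in the window, on either strand. It does not show that a factor binds there or that the element serves that gene.

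**Figure D1:**
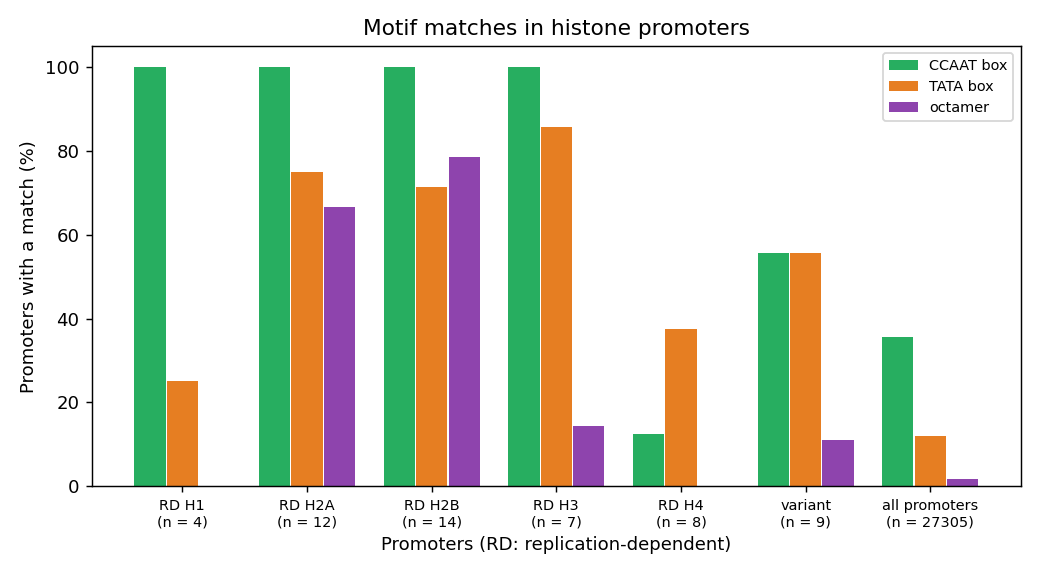
Share of RefSeq promoters (%, y axis) with a CCAAT box, TATA box or octamer match for replication-dependent (RD) histone families, variants and all promoters (x axis, n below each). The octamer reached 78.6% of H2B and 66.7% of H2A promoters, against 1.80% of all promoters.

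Replication-dependent histone RNA was higher in the MA input than in the NC input, at a low level in both. The 48 genes summed to 162 FPKM in MA and 90.6 FPKM in NC, which was 13.6% of all histone FPKM in MA and 7.803% in NC. The value was higher in MA in 36 of the 48 genes (75.0%) and lower in 12, while 57.6% of all genes in the table were higher in MA. The same direction held for the sum of each family. Linker H1 genes summed to 38.8 FPKM in MA and 13.1 FPKM in NC, and H2A genes to 22.7 FPKM in MA and 12.5 FPKM in NC. H2B genes summed to 92.4 FPKM in MA and 60.6 FPKM in NC, H3 genes to 3.85 FPKM in MA and 1.91 FPKM in NC, and H4 genes to 4.39 FPKM in MA and 2.50 FPKM in NC. H1-2, H2BC12 and H2BC9 carried most of the sum. The labels call the molecule total RNA, whereas the protocol selects poly(A) RNA, a step that depletes mRNAs without a tail. The values thus describe the RNA that was sequenced, and the part of this selection in the low level of the class and in its share of histone RNA was not tested. Genes of a family have nearly identical coding sequences, and how reads matching several of them were counted is not given in the sources used here, so single-gene values are less certain than the sums.

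Reads could be recovered from the FPKM values, which shows the depth behind these sums. For the 40 replication-dependent genes without introns and up to 1000 bp long, the inputs held 2554 reads in MA and 1017 reads in NC. Relative to the library totals, this is a ratio of 2.23 (exact 95% Clopper-Pearson interval 2.08 to 2.41, counting error only). The 27 of them under 1 FPKM in both inputs still summed to 122 reads in MA and 58 reads in NC, a ratio of 1.87 (1.36 to 2.60). Single genes were thinly covered. Reads were recovered for 47 replication-dependent genes. The interval of the ratio lay above equal in 20, below equal in 1 and included equal in 26. Such intervals were not computed for all genes, so this split has no background. Of all genes in the table, 57.6% were higher in MA. The exception on the low side was H2BC6, an H2B gene with 1 read in MA and 7 reads in NC.

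**Figure D2:**
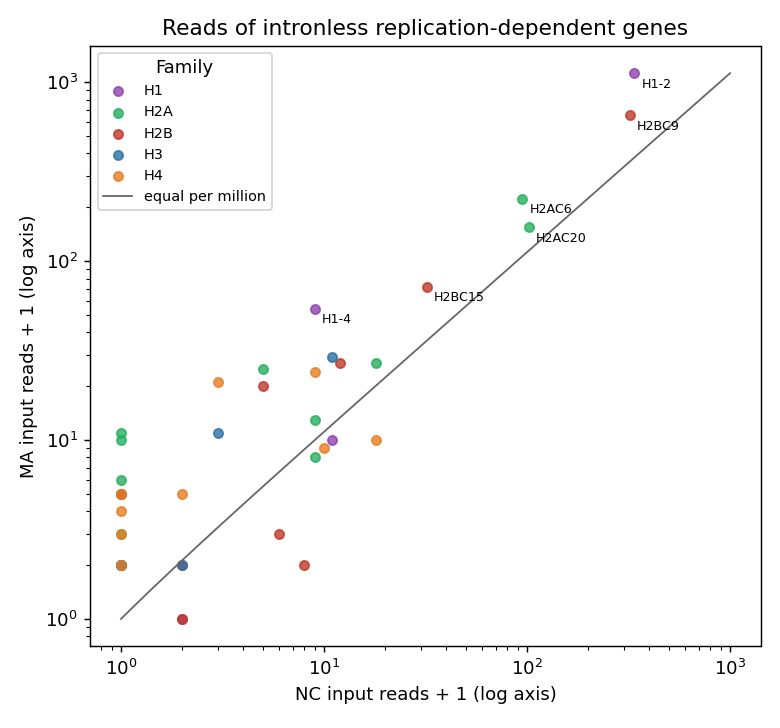
Recovered input reads plus 1 of the 40 intronless replication-dependent genes, MA on the y axis and NC on the x axis (both log axes), coloured by family, with the line of equal reads relative to the library totals; some low points coincide. H1-2, H2BC9 and H2AC6 lie above the line, with 1122, 654 and 222 reads in MA against 337, 319 and 94 reads in NC.

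A gene entered the fold comparison when it reached 1 FPKM in at least 1 input, and its difference is log2((MA FPKM + 1)/(NC FPKM + 1)), which understates the difference of low genes. Of the 58 histone genes 25 entered, 18 replication-dependent and 7 variant. Of the 18, 11 reached 1 FPKM only in MA and so had to be higher there, 1 reached it only in NC, and 6 reached it in both. Their median difference of 0.70 is therefore no measure of the class. The median over all 10564 genes compared was 0.11, with the 10th and 90th percentiles at -0.60 and 1.01. At 2-fold or more, 2 of the 18 were higher in MA (11.1%), H1-2 and H1-4, and 0 were lower. That share lies near the background, since 10.3% of all genes compared were 2-fold or more higher in MA and 2.98% were lower. The count rests on the pseudocount, since with 0.1 FPKM in its place 11 of the 18 were 2-fold or more higher, against 17.0% of all genes compared. Of genes whose higher input lay from 1 to under 10 FPKM, 10.6% were higher and 1.46% lower, and 1 of the 14 replication-dependent genes in that range was higher. Of the 36 genes with a RefSeq span of 1000 bp or less, 8.33% were higher (3 genes) and 5.56% lower. These 36 include 13 of the histone genes themselves, and 2 of the 3 higher genes are histone genes.

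Among linker histones, H1-2 (gene ID 3006), which encodes the somatic subtype H1.2, stood out by level. H1-2 was at 36.9 FPKM in MA and 12.4 FPKM in NC, a log2 difference of 1.49, and its 1122 reads in MA against 337 reads in NC gave a ratio of 2.96 (2.62 to 3.36). H1-4, which encodes subtype H1.4, was at 1.62 FPKM in MA and 0.274 FPKM in NC, from 53 reads in MA and 8 reads in NC. The wide interval of its ratio of 5.89 (2.78 to 14.4) shows how little 8 reads fix. Its log2 difference was 1.04, and 0.93 once the median difference of all genes was set to 0. H1-5 had 9 reads in MA and 10 reads in NC, and H1-6, the testis subtype, had 0 reads in MA and 1 read in NC.

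H2B genes held the highest replication-dependent levels. H2BC12 was at 46.0 FPKM in MA and 36.9 FPKM in NC (log2 difference 0.31), the highest of the class in both inputs. H2BC9, which lacks introns, was at 34.0 FPKM in MA and 18.6 FPKM in NC (0.83), from 654 reads in MA and 319 reads in NC. The ratio of H2BC12, from its minimum reads, was 1.25 (1.16 to 1.34) and that of H2BC9 was 1.82 (1.59 to 2.09). The intervals do not overlap, but they cover counting error only, and a difference between these genes was not tested. H2BC15 was at 3.15 FPKM in MA and 1.54 FPKM in NC, H2BC21 at 2.38 FPKM in MA and 0.765 FPKM in NC, and H2BC5 at 2.27 FPKM in MA and 0.695 FPKM in NC. H2BC13 and H2BC4 stood just above the filter, at 1.38 and 1.06 FPKM in MA, against 0.658 and 0.278 FPKM in NC.

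Among H2A genes, H2AC6 was at 10.3 FPKM in MA and 4.89 FPKM in NC, a log2 difference of 0.94. Its 222 reads in MA and 94 reads in NC gave a ratio of 2.10 (1.64 to 2.70). H2AC20 was at 7.49 FPKM in MA and 5.52 FPKM in NC (0.38), and its ratio of 1.36 (1.05 to 1.76) lay close to equal. H2AC13 was at 1.26 FPKM in MA and 0.927 FPKM in NC, and H2AC15 at 1.16 FPKM in MA and 0.218 FPKM in NC. The other 9 H2A genes did not reach 1 FPKM in either input.

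H3 and H4 genes were close to the detection limit. H3C10 was at 1.38 FPKM in MA and 0.555 FPKM in NC, and H3C4 at 1.13 FPKM in MA and 0.432 FPKM in NC. H4C8 was at 1.35 FPKM in MA and 0.528 FPKM in NC, and H4C5 at 1.17 FPKM in MA and 0.131 FPKM in NC, the last from 2 reads. H4C3 went the other way among the 18, at 0.534 FPKM in MA and 1.13 FPKM in NC (log2 difference -0.48). It rested on 9 reads in MA and 17 reads in NC, and the interval of its ratio included equal.

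The remaining 30 replication-dependent genes reached at most 0.951 FPKM in MA (H2BC11) and 0.760 FPKM in NC (H3C6). Of all 48, 14 were at 0 in NC and above 0 in MA, with 1 to 10 reads each in MA and 48 reads together. A further 3 were at 0 in MA and above 0 in NC. The same counts were not made over all genes, so this split has no background, and the MA library was the deeper. H2AC16 had 10 reads in MA and 0 in NC, and the exact 95% interval of its ratio began at 1.99. H2AC11 had 9 reads in MA and 0 in NC, and its interval began at 1.76. Of genes with reads in both inputs, H2BC18 had a minimum of 35 reads in MA and 3 in NC, a ratio of 10.4 (3.27 to 52.8). H2BC11 had 19 reads in MA and 4 in NC, a ratio of 4.23 (1.40 to 17.1). H2BC6, named above, went the other way. The genes given here with an interval are those of the 30 whose interval excluded equal, so they are no measure of this range. Each other gene of the 30 with recovered reads had an interval that included equal.

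**Figure D3:**
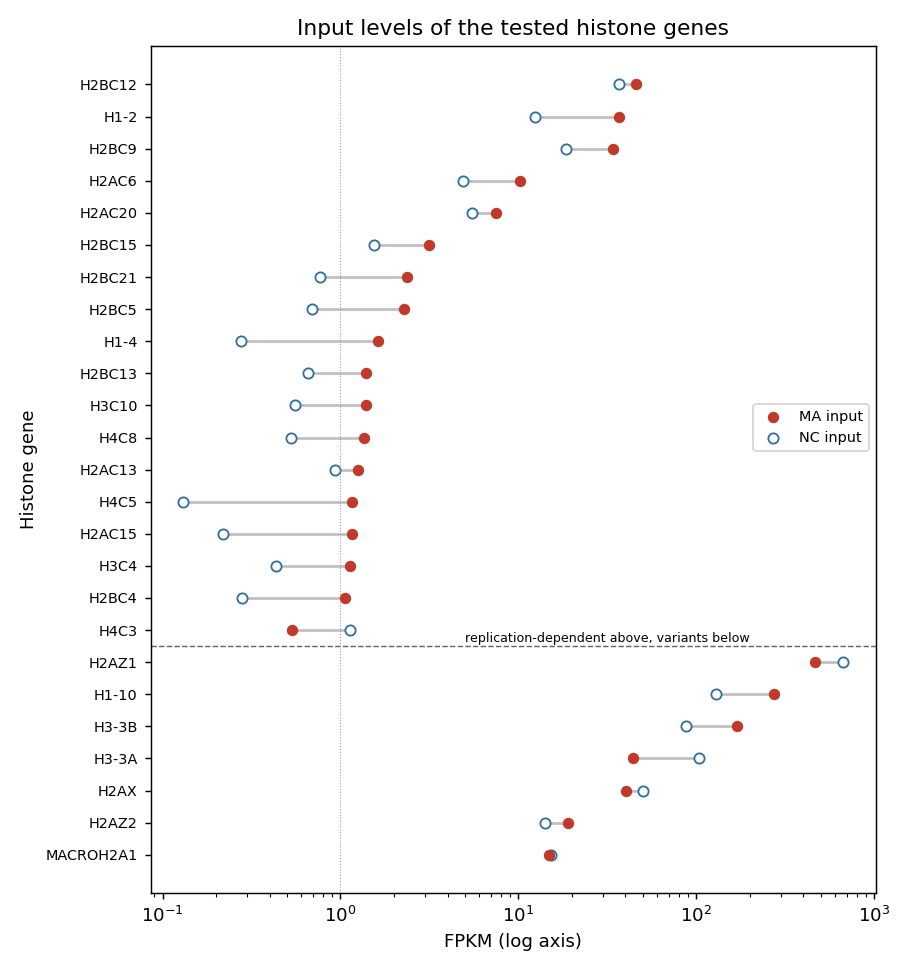
Input level in FPKM (log axis) of the 25 histone genes that reached 1 FPKM, with MA as filled and NC as open points, and with replication-dependent genes above the dashed line and variants below it. H2AZ1 and H1-10 stand highest in MA, at 465 and 273 FPKM, and H4C3 is the replication-dependent gene whose MA point lies left of its NC point.

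H2A and H2B genes often face each other across a short shared promoter. RefSeq gave 9 pairs of histone genes on opposite strands with starts 194 to 979 bp apart, and 7 were an H2A and an H2B gene. Both partners were compared in 4 pairs, and all 8 of their genes were higher in MA. Most of the 8 (H2AC15, H2BC21, H2BC13, H2AC13 and H2BC4) entered through MA alone and had to be higher there. The count is therefore no measure of agreement between partners. In the pairs not compared, H2BC17, H2BC7 and H3C7 were lower in MA, and the other genes were higher. The partners differed in level. H2AC6 was at 10.3 FPKM in MA and 4.89 FPKM in NC, whereas H2BC4, 246 bp away, was at 1.06 FPKM in MA and 0.278 FPKM in NC. H2AC20 was at 7.49 FPKM in MA and 5.52 FPKM in NC, whereas H2BC21, 236 bp away, was at 2.38 FPKM in MA and 0.765 FPKM in NC.

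Variant histones made up most of the measured histone RNA, 1026 FPKM in MA and 1070 FPKM in NC, and differed in both directions. Of the 10 variants, 3 were higher in MA and 7 lower. Of the 7 compared, 1 was 2-fold or more higher in MA (H1-10) and 1 was 2-fold or more lower (H3-3A), with a median difference of -0.03. With 10.3% of all genes compared higher and 2.98% lower, 1 gene of 7 in either direction is too few to set the variants apart. H1-10, a linker histone made outside S phase, was at 273 FPKM in MA and 129 FPKM in NC (log2 difference 1.07). Its 17254 reads in MA and 7270 reads in NC gave a ratio of 2.11 (2.05 to 2.17). Once the median difference of all genes was set to 0, the difference of H1-10 was 0.96 and no longer reached 2-fold.

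H3-3A and H3-3B encode the same protein, H3.3, which HIRA and the DAXX and ATRX pair deposit outside replication, and they differed in opposite directions. H3-3A was at 44.0 FPKM in MA and 104 FPKM in NC, a log2 difference of -1.22 and a ratio of 0.424 (0.397 to 0.452). H3-3B was at 169 FPKM in MA and 88.0 FPKM in NC, a log2 difference of 0.93 and a ratio of 1.92 (1.87 to 1.97). Their sum was 213 FPKM in MA and 192 FPKM in NC. H3-3A thus made up 20.6% of the sum in MA and 54.1% in NC. The promoters of this pair are shown because the genes share a product and not a direction, with the build, window and capitals as above.
H3-3A (chr1:226061581-226061880, plus strand): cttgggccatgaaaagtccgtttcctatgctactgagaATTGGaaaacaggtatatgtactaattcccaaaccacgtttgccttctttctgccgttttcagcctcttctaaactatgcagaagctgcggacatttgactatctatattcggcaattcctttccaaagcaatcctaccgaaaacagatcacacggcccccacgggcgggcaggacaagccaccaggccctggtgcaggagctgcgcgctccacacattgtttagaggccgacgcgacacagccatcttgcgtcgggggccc
H3-3B (chr17:75779730-75780029, minus strand): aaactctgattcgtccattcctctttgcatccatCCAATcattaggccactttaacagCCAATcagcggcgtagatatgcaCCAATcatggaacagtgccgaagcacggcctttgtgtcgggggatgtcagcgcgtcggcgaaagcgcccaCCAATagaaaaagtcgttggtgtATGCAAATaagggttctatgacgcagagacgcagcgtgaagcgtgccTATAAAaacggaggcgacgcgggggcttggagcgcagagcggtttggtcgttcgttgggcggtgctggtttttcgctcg
H3-3B held 4 CCAAT matches, 1 TATA match and 1 octamer, and was the variant promoter with an octamer. H3-3A held 1 CCAAT match and neither of the other motifs. Any link between these motifs and the directions of the genes was not tested.

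The H2A variants were lower or little different in MA, apart from H2AZ2. H2AZ1 and H2AZ2 encode the forms of H2A.Z, a variant of promoter nucleosomes. H2AZ1, the most abundant histone RNA in both inputs, was at 465 FPKM in MA and 669 FPKM in NC (log2 difference -0.52). H2AZ2 was at 19.1 FPKM in MA and 14.1 FPKM in NC (0.42), so H2AZ1 made up 96.1% of the pair in MA and 97.9% in NC. H2AX, the variant phosphorylated at DNA breaks, was at 40.3 FPKM in MA and 50.0 FPKM in NC (-0.31). MACROH2A1, which carries a macro domain and marks silent chromatin, was at 14.9 FPKM in MA and 15.2 FPKM in NC (-0.03), and was the compared variant whose interval included equal. H4-16 was at 0.583 FPKM in MA and 0.590 FPKM in NC, and MACROH2A2 at 0 in MA and 0.0140 FPKM in NC.

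Genes that act on histone mRNA or on histone proteins were mixed. Of 19 genes of histone mRNA 3′ end processing and decay, all compared, 3 were 2-fold or more higher in MA and 0 lower, with a median difference of 0.21. Over all genes compared, 10.3% were higher and 2.98% lower, with a median of 0.11, and 3 genes are too few to set this list apart. CASP8AP2, part of the complex that cuts histone pre-mRNA, was at 5.68 FPKM in MA and 1.41 FPKM in NC. NPAT, the coactivator of histone gene transcription, was at 4.92 FPKM in MA and 1.77 FPKM in NC, and ERI1, an exonuclease that trims the stem-loop end, at 3.81 FPKM in MA and 1.39 FPKM in NC. SLBP was at 67.2 FPKM in MA and 64.0 FPKM in NC, and LSM11 of the U7 particle at 2.69 FPKM in MA and 2.45 FPKM in NC. Of 32 chaperones and deposition factors, 3 were 2-fold or more higher (SPTY2D1, ANP32E and ATRX) and 2 lower (IPO4 and ZNHIT1), with a median of 0.05. The 3 of 32 lie near the 10.3% of all genes compared that were higher. ANP32E, which removes H2A.Z from nucleosomes, was at 35.1 FPKM in MA and 13.7 FPKM in NC. HIRA was at 21.02 FPKM in MA and 32.9 FPKM in NC, DAXX at 54.9 FPKM in MA and 56.6 FPKM in NC, and ATRX at 6.41 FPKM in MA and 2.19 FPKM in NC.

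S phase genes as a list lay near 0, and G2 and M phase genes lay above it. Of 22 S phase genes, 1 was 2-fold or more higher in MA (POLA1, a DNA polymerase subunit) and 0 lower, with a median of -0.01 and 11 above 0. Of 20 genes of G2 and M phase, 10 were 2-fold or more higher and 0 lower, with a median of 0.85. Over all genes compared, 10.3% were 2-fold or more higher and 2.98% lower, with a median of 0.11. CENPE, a kinetochore motor, was at 12.6 FPKM in MA and 3.18 FPKM in NC, TOP2A at 96.8 FPKM in MA and 31.7 FPKM in NC, and KIF11 at 15.9 FPKM in MA and 5.21 FPKM in NC. The part of cell cycle stage in the histone values was not tested. Of 12 RNAs without a poly(A) tail that were listed for comparison, 0 were in the table, so the share of such RNA in each input could not be read from them. Among histone genes outside the symbol rule, CENPA, the centromeric H3, was at 47.4 FPKM in MA and 39.1 FPKM in NC, and H2AW at 16.6 FPKM in MA and 23.3 FPKM in NC. H3-5 was at 1.62 FPKM in MA and 0.994 FPKM in NC.

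**Figure D4:**
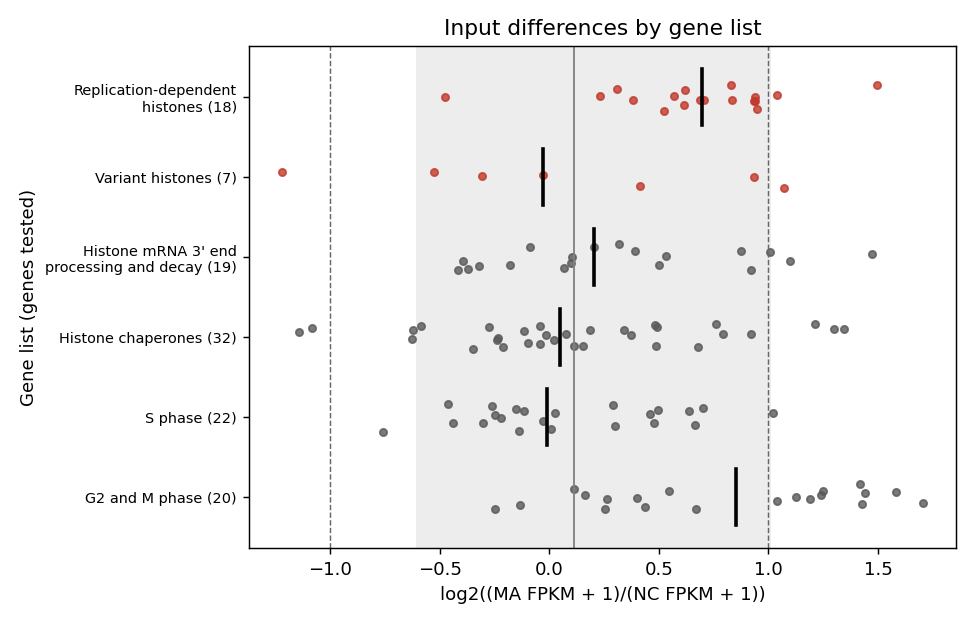
Difference log2((MA FPKM + 1)/(NC FPKM + 1)) of each compared gene (x axis) by list (y axis, number compared in brackets), with list medians as black bars, 2-fold as dashed lines, and the median and 10th to 90th percentile of all compared genes as a grey line and band. Histone medians are 0.70 for replication-dependent genes, of which 11 of 18 entered through MA alone, and -0.03 for variants.

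m6A peaks were listed in 14 histone genes in MA (18 peaks) and 11 in NC (14 peaks), 10 and 6 of them replication-dependent. Of the 25 genes compared, 13 had a peak in the MA list (52.0%) and 10 in the NC list (40.0%), against 80.0% of all compared genes in MA and 83.3% in NC. The share was lower among short genes, a group that is partly histone genes. Of the 36 genes spanning 1000 bp or less, 52.8% had a peak in MA and 47.2% in NC. Of the 13 histone genes among those 36, 4 had a peak in MA and 3 in NC, so they lower the share they are set against. At 10 FPKM or more, 8 of 11 histone genes had a peak in each list, against 77.5% of all such genes in MA and 81.5% in NC. Under 10 FPKM, 5 of 14 had a peak in MA and 2 in NC, against 83.2% of such genes in MA and 85.4% in NC. H2AZ1 and H3-3B, at 465 and 169 FPKM in MA and 669 and 88.0 FPKM in NC, had no peak in either list.

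Within the replication-dependent class, genes with a peak were counted by RefSeq span, which includes introns. Of the 8 genes spanning 2224 to 29682 bp, 6 had a peak in at least 1 list, and of the 40 spanning 387 to 797 bp, 5 did. The number of genes with a peak was the same in both span groups, 5 each in MA and 3 each in NC. The groups also differed in level, since 5 of the 8 long genes but 13 of the 40 short genes reached 1 FPKM. The parts of span and of level in these peak calls were not tested. The long group included H2BC12, H2BC21, H2BC4, H2BC5, H3C4 and H3C6, and the short group H1-2, H2AC6, H2AC20, H2BC9 and H2BC17.

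Both lists held a peak in 9 histone genes, the MA list alone in 5 and the NC list alone in 2. Over all genes, 9085 had a peak in the MA list and 9522 in the NC list. How many of all genes were in 1 list alone was not counted, so the split of histone genes has no background. Touching peaks of a list were joined into regions, and a partner in the other list needed an overlap of at least 1 bp on the same strand. Of 18 histone regions in MA, 8 had a partner in NC (44.4%), and of 14 in NC, 9 had a partner in MA (64.3%), against 79.6% and 73.8% of all regions. Positions are on GRCh38.p13. Fold enrichment is the authors' value of RIP over input, used to describe peaks within a list and not compared between lists. Its median over histone peaks was 2.55 in MA, where the whole list had 3.07, and 3.29 in NC, where the whole list had 3.57.

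Shared peaks lay in 4 replication-dependent genes, H1-2, H2BC9, H2AC20 and H2BC12. In H1-2 a peak at chr6:26055837-26056129 in MA (fold 1.79) covered 40.1% of the gene, and 1 at chr6:26055886-26056129 in NC (fold 3.35) covered 33.4%. H2BC9 had the same interval in both lists, chr6:26251660-26251891, covering 50.2% of the gene, with fold 3.00 in MA and 2.25 in NC. H2AC20 had a peak at chr1:149887214-149887362 in both lists (fold 3.00 in MA and 1.75 in NC), and the NC list added chr1:149886967-149887115 at its 5′ UTR (fold 6.50). H2BC12 had a 5′ UTR peak in both lists, chr6:27146661-27146809 in MA (fold 1.82) and chr6:27146563-27146809 in NC (fold 3.22). The MA list added an H2BC12 peak at the stop codon that spans an intron, chr6:27138342-27146366, with 346 bp of exon (fold 1.83).

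Among variants, H1-10 had the same start codon peak in both lists, chr3:129315993-129316286 (fold 1.76 in MA and 2.18 in NC), covering 19.4% of the gene. H2AX peaks covered 53.2% of the gene in MA and 81.3% in NC. The 3′ UTR of H2AX held peaks at chr11:119093924-119094421 (fold 4.07) and chr11:119094819-119095167 (fold 1.91) in MA, against chr11:119093924-119094520 (fold 4.14) in NC, where a start codon peak ran over chr11:119094769-119095465 (fold 3.00). H2AZ2 had a 3′ UTR peak in each list at different places, chr7:44827937-44828137 in MA (fold 5.40) and chr7:44828886-44829135 in NC (fold 4.00). MACROH2A1 peaks ran over introns and overlapped between the lists, with 701 bp of exon at fold 1.64 in MA, against 451 bp at fold 1.52 and 251 bp at fold 6.0 in NC.

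Genes with peaks in the MA list alone were H2AC6, H2BC21, H2BC5, H2BC4 and H2BC17. The first 4 were below 5 FPKM in the NC input and higher in MA, and the part of input level in these peak calls was not tested. H2AC6 had a stop codon peak at chr6:26124407-26124690 (fold 3.21) over 54.7% of the gene. H2BC21 had peaks at chr1:149886435-149886633 (fold 1.86) and, in the 3′ UTR, chr1:149885793-149885941 (fold 2.25). H2BC5 had a 5′ UTR peak at chr6:26158155-26158350 (fold 2.88) and a stop codon peak at chr6:26171056-26171349 (fold 2.60), and H2BC4 a 3′ UTR peak at chr6:26114952-26115100 (fold 2.50). The H2BC17 peak at chr6:27893518-27893658 (fold 10.0) rests on a gene with 2 input reads in MA and 5 reads in NC, so its fold is poorly determined. In the NC list alone, H3-3A had a start codon peak at chr1:226062466-226064358 (fold 2.00), and H3C6 a stop codon peak at chr6:26225374-26225674 (fold 8.00). H3C4 had a peak in each list without overlap, chr6:26196883-26197080 in MA (fold 6.0) and chr6:26197179-26198948 in NC (fold 10.0).

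**Figure D5:**
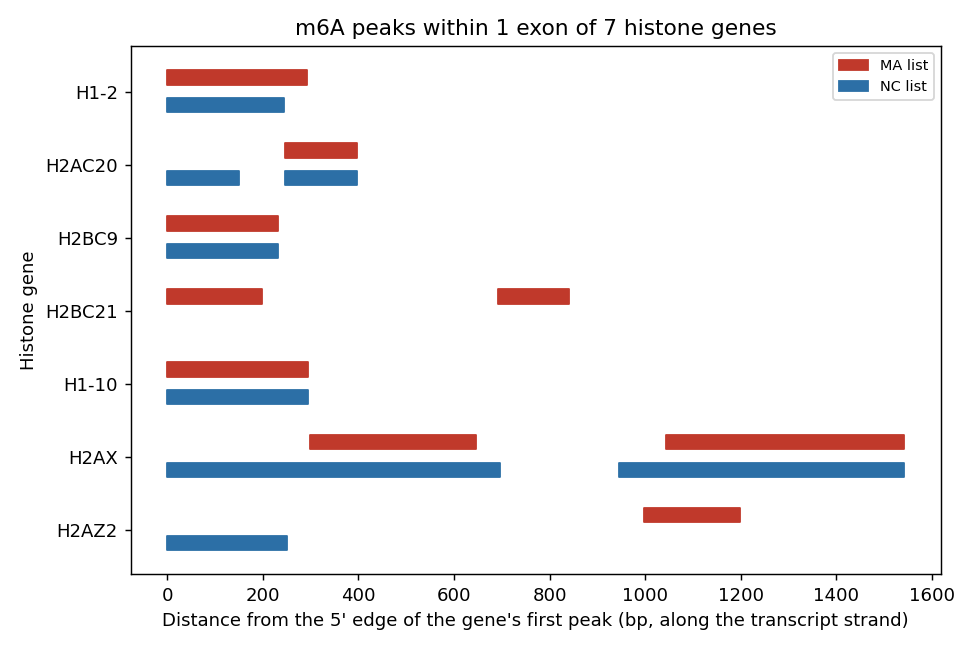
m6A peaks of 7 histone genes whose peaks lie within 1 exon, as bars along the transcript strand (x axis, bp from the 5′ edge of the gene's first peak), with the MA list above the NC list for each gene. H2BC9 and H1-10 have the same bar in both lists, the H2AZ2 bars do not overlap, and H2BC21 has bars in the MA list alone.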

How the data were processed

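meRIP-seq of OMM2.3 cells gave an input and a RIP library per condition. The authors deposited FPKM values of both inputs and a peak list for each condition with exonic width, fold enrichment (a ratio of RIP over input), p-value and false discovery rate, per the file headers. GRCh38.p13 is the build, and ChIPseeker, deepTools, HISAT, HISAT2 and Trimmomatic are the tools, per the submitters' processing notes. Versions, the read counter and the peak caller were not given in the sources used here.

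Groups were taken from the labels. Histone genes were selected by symbol, and the members and companion lists were chosen with earlier results of these data known. All compared histone genes and all their peaks may be named, and of each other list the 3 largest differences plus a set of regulators. Histone genes named although under 1 FPKM in both inputs and without a peak were chosen after their values were seen. Differences are log2((MA FPKM + 1)/(NC FPKM + 1)) over genes that reached 1 FPKM in either input, counted at 2-fold. Without replicates no test was made.

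Library totals were recovered from the steps of the FPKM values: the totals kept gave counted lengths equal to the RefSeq span in 103 genes, against 22 for the next best. Reads were resolved in 56 of 58 histone genes, 45 at the RefSeq span and 11 as the smallest whole numbers that fit, to within 0.004 reads (0.0001 for the minimum). Without molecular identifiers, PCR copies cannot be told from separate molecules, so intervals cover counting error only. Repeated rows, 85 in MA and 113 in NC, were counted a single time. The read recovery was tested on simulated data. Other pseudocounts, filters and scalings, stricter peak thresholds and a 50% overlap were tried. Python 3.11.15, numpy 2.4.6, pandas 2.3.3, scipy 1.17.1 and matplotlib 3.10.9 were used.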

Additional observations from a re-analysis of the deposited data

How the results depend on the processing

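The number of replication-dependent genes 2-fold or more higher in MA depended on how low values were treated, and the cause was not tested. It was 2 of 18 (11.1%) as reported, 11 with a pseudocount of 0.1 FPKM (61.1%, against 17.0% of all genes compared) and 12 of 28 after rescaling to TPM (42.9%, against 16.3%). Of the 18, 11 entered through MA alone and so had to be higher there, so the 61.1% is no measure of the class. How many of the 28 entered in this way was not counted. The number was 1 of 18 with a pseudocount of 5 FPKM (5.56%, against 2.58%) and 1 of 5 among genes at 5 FPKM or more (against 11.3%). It lay below the share of all genes in 3 settings: 1 of 18 with the median difference of all genes, 0.11, set to 0 (5.56%, against 7.16%), 2 of 48 with no filter (4.17%, against 7.54%), and 1 of 10 with a filter on the mean of both inputs (against 10.4%), an alternative chosen after seeing the data. Their median of 0.70 became 1.19 and 0.26 with pseudocounts of 0.1 and 5 FPKM, 0.25 with no filter and 0.95 as TPM. The 1 variant 2-fold or more higher became 0 with the median set to 0 and 2 as TPM. Counts of lower genes, of genes with a peak and of shared regions kept to within 1.5 times under the alternatives run. The order of the lists did not hold, however. With all peaks, 14 histone genes had a peak in MA and 11 in NC. With peaks at a fold enrichment of 2 or more, 10 had a peak in MA and 11 in NC. Of 100 single-gene values, 20 were counted as moved from the reported value, though not always to outside the gene's own counting interval. With a pseudocount of 0.1 FPKM, H2BC21 moved to 1.52, inside its log2 interval of 1.23 to 2.06. MACROH2A1 changed sign, to 0.05 as TPM. No paired analysis was possible because each group had 1 library, and no library could be left out. Depth limits the genes under 1 FPKM, most of which had 10 reads or fewer.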
